A study of Homo sapiens with 26 samples.

Results

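The knockdown of SARNP by 2 siRNAs was compared with its controls in 6 RNA sequencing libraries, out of 26 in the whole series. The series lowered 5 genes in turn in 786-O cells, an established line from a human clear cell carcinoma of the kidney, and sequenced poly(A) RNA. The 6 libraries were those of the table shared by SARNP and DDX39A that were labelled as SARNP siRNA 3 (2 libraries), SARNP siRNA 9 (2 libraries, both with the target misspelt in the treatment label and spelt SARNP in the title) and non-targeting control, an Allstars negative control siRNA (2 libraries). All groups were unmodified 786-O cells grown in RPMI with serum and transfected with DharmaFECT 1. Per the labels, cells were split 24 h after transfection and harvested at 48 h. The 4 DDX39A knockdown libraries of that table (siRNA 1 and siRNA 4, 2 libraries each) served as a comparison. All results come from 1 cell line and 1 harvest time. Whether the 2 libraries of a group were separate transfections is not stated, so the p-values measure the spread between these libraries, which may be technical.

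SARNP, also called CIP29, is a small RNA-binding protein of the nucleus that works with the DEAD-box helicases DDX39B and DDX39A. It belongs to TREX, the complex that couples transcription and splicing to the export of mRNA, and which hands mRNA to the export receptor NXF1. 786-O cells lack a working VHL protein, so that the hypoxia factor HIF-2, whose alpha subunit EPAS1 encodes, is not degraded and its targets are expressed in normal oxygen.

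The values are normalized signal per gene, that is reads divided by a size factor per library. Changes are differences of log2(signal + 1), which understate the change of genes of low signal. A gene was called when its Benjamini-Hochberg adjusted p from limma, over the 11672 genes with a mean of at least 10 in the table, was below 0.05. The gene just above that mean was GPR15 at 10.0, and the gene just below was PSMD6-AS2 at 9.76. The libraries held 11828033 to 18082291 gene reads.

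SARNP mRNA, the target, read 907 and 942 in the control libraries, 119 and 130.3 with siRNA 3 and 84.4 and 72.4 with siRNA 9. All 4 knockdown libraries lay below both controls, with 13.5% of the control mean left by siRNA 3 and 8.48% by siRNA 9. The log2 change was -2.88 (SE 0.08, adjusted p = 5.2e-26) with siRNA 3 and -3.55 (SE 0.08, adjusted p = 1.3e-29) with siRNA 9. SARNP mRNA in the DDX39A knockdown read 1003 and 1021 with DDX39A siRNA 1 and 845 and 892 with DDX39A siRNA 4, near the controls. The helicase DDX39A itself read 3273 and 3146 in the control libraries, 3822 and 3680.2 with siRNA 3 and 3336 and 3258 with siRNA 9 after SARNP knockdown. Its log2 change was 0.23 (SE 0.05, adjusted p = 3.8e-04) with siRNA 3 and 0.04 (SE 0.05, adjusted p = 0.52) with siRNA 9. In bulk RNA, fewer cells expressing a gene and less RNA per cell cannot be told apart.

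The cells carried the markers of their line. The 9 renal carcinoma markers PAX8, PAX2, CDH6, EPAS1, VIM, KRT8, KRT18, CA12 and NNMT were all measured, with a lowest control mean of 268. Their summed signal was 80260 to 83205 in the control libraries, 74050 to 74397 with siRNA 3 and 66429 to 70000 with siRNA 9. Of 16 markers of other cell types, 2 were measured, CD68 and PDGFRB, and neither was called with both siRNAs. The others, such as PTPRC of leukocytes and PECAM1 of endothelium, were not among the genes tested. The summed signal of this pair was 210 to 215 in the controls, 205 to 209 with siRNA 3 and 146 to 155 with siRNA 9, and its part in the results was not tested.

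Each siRNA alone moved a large share of the genes, and the 2 siRNAs often disagreed. With siRNA 3, 2373 genes were called higher (20.3%) and 2452 lower (21%), together 41.3% of genes tested. With siRNA 9, 3390 were higher (29%) and 3429 lower (29.4%), together 58.4%. The median absolute log2 change of the called genes was 0.33 and 0.39, and 307 and 665 genes changed by over 2-fold. Tested directly, 7487 genes differed between siRNA 9 and siRNA 3 (64.1%). Genes called in opposite directions numbered 1517 (13%). Only genes called in the same direction with both siRNAs are followed from here, 837 higher (7.17%) and 835 lower (7.15%). Both comparisons use the same 2 control libraries. Gene SASS6, with an adjusted p of 0.0499 for the weaker siRNA, was just inside this rule, and SLC1A5, with 0.05005, was just outside.

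The shared changes were mostly small. The smaller of the 2 changes had a median of 0.28 for the genes that rose and 0.26 for those that fell, and it exceeded 1 for 27 and 11 genes. Of the genes that rose, 831 had all 4 knockdown libraries above both controls, beside 14.7% of all genes tested. Of those that fell, 833 had all 4 below both, beside 15.4%. These genes were called against the same 2 controls, so the lack of overlap largely follows from the call. Scaling each library to its total gene reads, an alternative added after the data were seen, changed the split from 837 higher and 835 lower to 1102 higher and 631 lower, or from 50.1% to 63.6% higher. With DESeq2 on whole reads 498 genes were higher, 579 lower and 962 opposite.

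**Figure D1:**
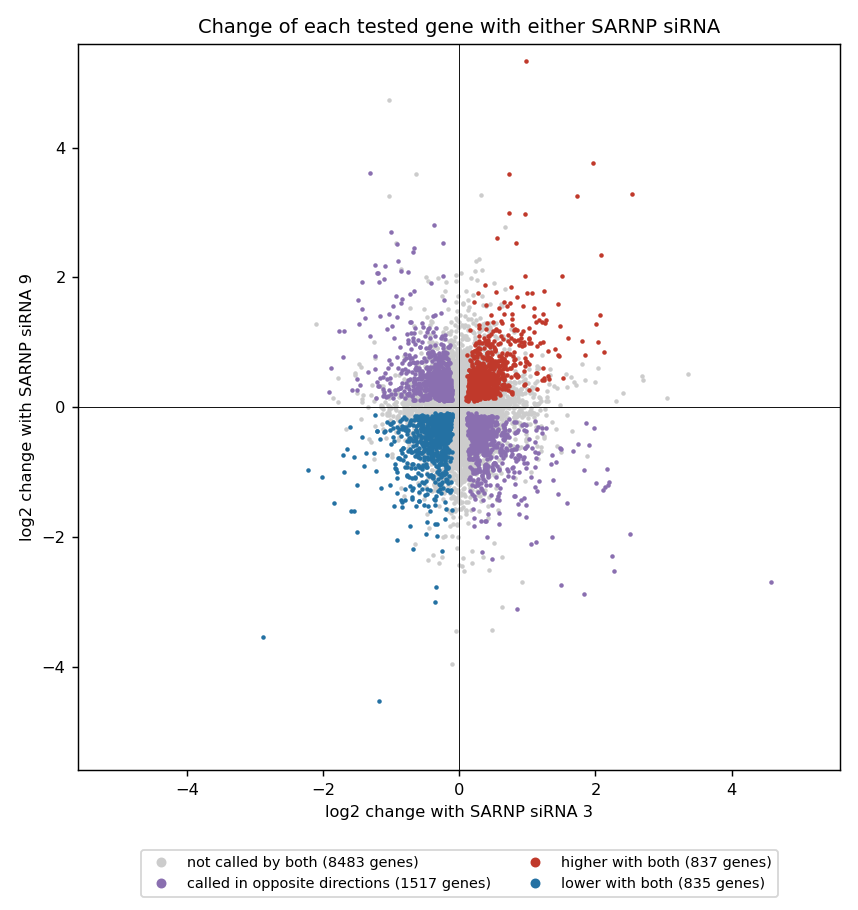
Each point is 1 of the 11672 genes tested, with its log2 change against control with SARNP siRNA 3 on the x axis and with siRNA 9 on the y axis. The 837 genes higher and 835 lower with both siRNAs fill the upper right and lower left, and the 1517 genes called in opposite directions fill the other two quadrants.

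Among genes with a mean of at least 50, those that rose most with both siRNAs included a transcription factor, an mRNA decay enzyme and a pair of enzymes of tyrosine breakdown. Pseudogenes and clone-based names were left out. They were ranked by the smaller of the 2 changes, so the size of their changes is what chose them. Genes outside these limits rose more: the largest smaller change of all was 2.54. GDF15, given below, had a mean of 43.95 and rose by 2.08 and 2.35. ETV1, an ETS-family transcription factor, read 22.3 and 28.8 in the control libraries, 104 and 114 with siRNA 3 and 64.8 and 74.4 with siRNA 9. All 4 knockdown libraries were above both controls, and siRNA 3 gave the higher level. The log2 change of ETV1 was 2.06 (SE 0.22, adjusted p = 9.5e-10) with siRNA 3 and 1.42 (SE 0.22, adjusted p = 1.0e-06) with siRNA 9.

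DCP2, the enzyme that removes the 5′ cap of mRNA ahead of decay, stood at 631 and 658 in the control libraries, 1509 and 1474 with siRNA 3 and 1632 and 1582 with siRNA 9. Its 4 knockdown libraries lay close together and well above the controls. The log2 change was 1.21 (SE 0.06, adjusted p = 2.0e-19) with siRNA 3 and 1.32 (SE 0.06, adjusted p = 4.4e-21) with siRNA 9. HGD, homogentisate dioxygenase, and FAH, fumarylacetoacetate hydrolase, act in the same chain of tyrosine breakdown. HGD gave 140.0 and 147 in the control libraries, 299.5 and 316 with siRNA 3 and 390.4 and 371 with siRNA 9, and FAH gave 453 and 444 in the control libraries, 1125 and 991 with siRNA 3 and 912 and 885 with siRNA 9. Neither gene's knockdown libraries overlapped the controls. HGD rose by 1.09 and 1.399 on the log2 scale with siRNA 3 and siRNA 9, and FAH by 1.23 and 1.00.

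The other genes of largest rise span the cell surface, trafficking and signalling. SEC24A, a cargo-binding coat protein of vesicles that leave the endoplasmic reticulum, read 853 and 897 in the control libraries, 1816 and 1795 with siRNA 3 and 1733 and 1727 with siRNA 9, a change of 1.04 and 0.98 that was nearly equal for the 2 siRNAs. RIN1, a Ras effector that activates RAB5 in endocytosis, rose by 1.10 and 1.17. TECPR2, a protein of autophagy and secretion, rose by 1.17 and 1.35. ITGB6, the beta 6 integrin subunit of epithelia, rose by 1.02 and 1.06, and the membrane protein MPZL3 by 0.99 and 1.76. NPTXR, a receptor for neuronal pentraxins, rose by 1.19 and 0.99, NCKAP5 by 1.02 and 0.99 and C10orf128 by 1.26 and 1.30. In all 12 genes every knockdown library was above both controls, which the rule required, and the largest adjusted p was 3.8e-05.

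Among the genes that fell most within the same limits was CXCL8, the neutrophil chemokine interleukin 8. It read 206 and 254 in the control libraries, 55.3 and 72.5 with siRNA 3 and 91.8 and 72.4 with siRNA 9. Each knockdown library held less than either control. The log2 change was -1.84 (SE 0.15, adjusted p = 6.4e-13) with siRNA 3 and -1.48 (SE 0.15, adjusted p = 6.9e-11) with siRNA 9.

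RTL3, a gene derived from a retrotransposon Gag, read 186 and 182 in the control libraries, 78.3 and 82.0 with siRNA 3 and 8.10 and 5.95 with siRNA 9. It was far lower with siRNA 9 than with siRNA 3, at log2 changes of -1.19 and -4.54 for siRNA 3 and siRNA 9. ZNF121, a zinc finger protein, fell more with siRNA 3, at -1.69 and -1.0. BTG3, of the antiproliferative BTG/TOB family, changed by -0.96 and -1.52 and the long noncoding RNA UCA1 by -0.85 and -1.47.

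Genes of adhesion and the cytoskeleton also stood among the 12 of largest fall. TGFB1I1, the focal adhesion protein Hic-5, read 259 and 271 in the control libraries, 130.4 and 143 with siRNA 3 and 157 and 121 with siRNA 9, at changes of -0.95 and -0.94. SLK, a STE20-like kinase of adhesion turnover, read 2156 and 2156 in the control libraries, 1189.7 and 1081 with siRNA 3 and 1078 and 1155 with siRNA 9, at -0.93 and -0.95. DPYSL2, a microtubule-binding protein also called CRMP2, changed by -0.92 and -1.0. For these the 2 siRNAs gave nearly the same size. The secreted protein C1QTNF1 changed by -1.01 and -1.19, SERTAD4 by -0.94 and -0.87 and MAP3K7CL by -0.85 and -1.54. The largest adjusted p among the 12 was 5.7e-04.

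**Figure D2:**
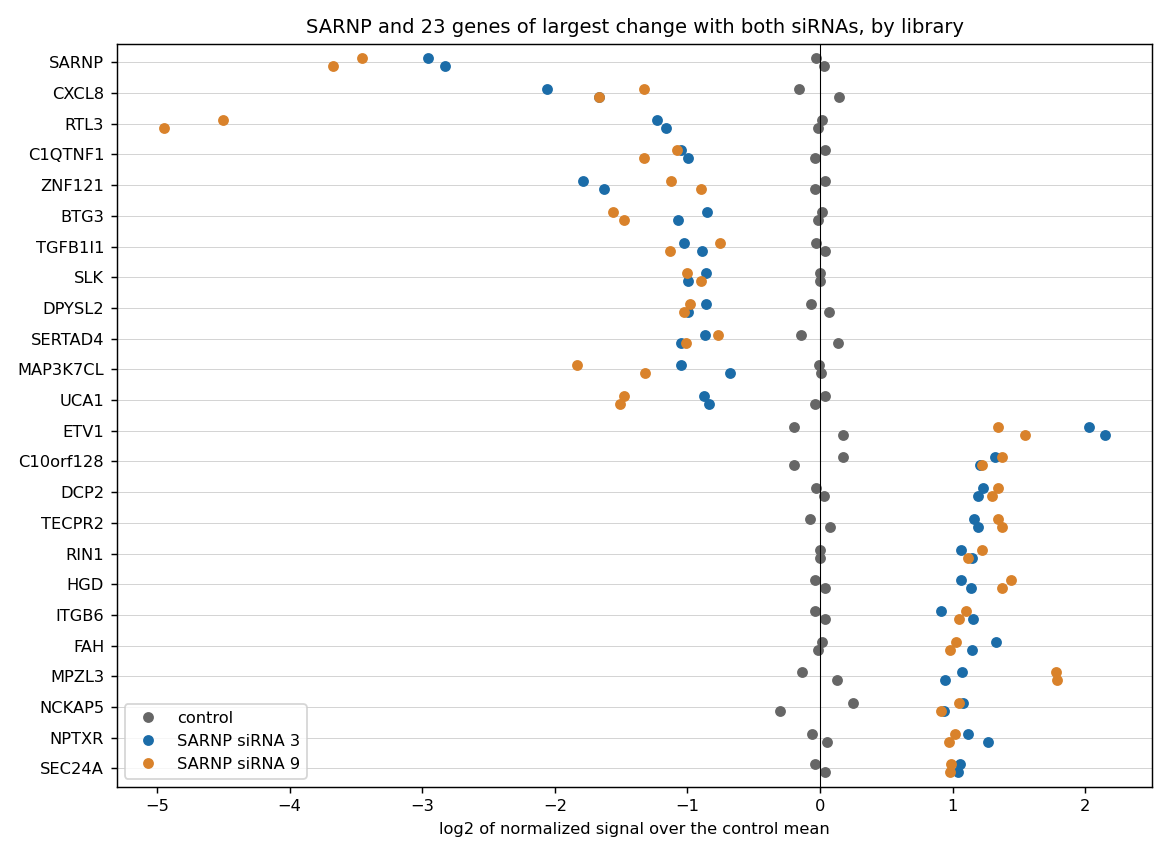
Each row is a gene and each point 1 library, placed on the x axis by the log2 of its normalized signal over the mean of the 2 controls (grey for control, blue for SARNP siRNA 3, orange for siRNA 9). SARNP and the 11 genes of largest fall that are shown lie to the left of both controls in all 4 knockdown libraries, and the 12 of largest rise lie to the right.

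CXCL8 belongs to a list of 29 NF-kB targets and cytokines, of which 25 were measured. Of these, 6 fell and 1 rose with both siRNAs, beside 7.15% and 7.17% of all genes. The median log2 change of the 25 was -0.24 with siRNA 3 and -0.12 with siRNA 9, beside 0.00 for all genes with either. The 6 that fell were CXCL8, CXCL1, IL6, TNFAIP3, TRAF1 and IL32, and DESeq2 called 3 members lower. LIF, a cytokine of the interleukin 6 family, rose by 0.33 and 0.78.

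The promoter windows of the cytokines in this group that fell most are shown because they hold a short word of the kind that NF-kB binds. Each is the 200 bases before the RefSeq start site in GRCh38.p14, on the plus strand (chr4:73740369-73740568 for CXCL8, chr4:73869193-73869392 for CXCL1 and chr7:22727000-22727199 for IL6). The deposited values are on hg19, and no coordinate was carried between the builds. Capitals mark matches to GGNNTTTCC, where N is any base, searched on both strands.
CXCL8: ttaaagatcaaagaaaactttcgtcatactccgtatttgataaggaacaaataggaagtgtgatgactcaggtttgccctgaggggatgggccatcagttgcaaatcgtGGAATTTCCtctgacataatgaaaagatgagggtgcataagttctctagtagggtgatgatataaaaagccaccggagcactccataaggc
CXCL1: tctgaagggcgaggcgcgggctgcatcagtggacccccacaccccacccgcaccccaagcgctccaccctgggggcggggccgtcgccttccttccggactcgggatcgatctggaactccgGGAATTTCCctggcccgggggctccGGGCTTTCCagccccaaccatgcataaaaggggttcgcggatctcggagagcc
IL6: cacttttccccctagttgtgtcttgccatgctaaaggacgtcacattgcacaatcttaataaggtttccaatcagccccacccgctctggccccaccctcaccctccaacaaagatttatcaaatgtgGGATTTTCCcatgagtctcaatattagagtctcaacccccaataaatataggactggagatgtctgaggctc
The window of CXCL8 holds 1 match, that of CXCL1 holds 2 and that of IL6 holds 1. The word was in 13 of 20 windows of the list's measured members (65%) and in 5 of 6 of those lower with both siRNAs (83.3%). It was in 447 of 9082 windows of the genes tested (4.92%) and in 1218 of 27305 of all windows (4.46%). The list is one of NF-kB targets, so a share above that of all genes is favoured by how it was chosen. A match describes letters and shows no binding.

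CXCL1, a chemokine of the same receptor as CXCL8, read 54.1 and 49.1 in the control libraries, 10.4 and 13.7 with siRNA 3 and 24.99 and 22.8 with siRNA 9. Its siRNA 3 libraries were the lowest, and all 4 lay below the controls. The log2 change was -2.02 (SE 0.23, adjusted p = 2.9e-09) with siRNA 3 and -1.08 (SE 0.23, adjusted p = 1.1e-04) with siRNA 9. CXCL1, CXCL2 and CXCL3 are near-identical copies, so the split of reads between them is uncertain.

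IL6, interleukin 6, read 89.1 and 90.8 in the control libraries, 43.8 and 52.5 with siRNA 3 and 56.0 and 47.6 with siRNA 9, with no overlap of knockdown and control libraries. Its log2 change was -0.89 (SE 0.17, adjusted p = 6.2e-05) with siRNA 3 and -0.79 (SE 0.17, adjusted p = 1.8e-04) with siRNA 9. TNFAIP3, the A20 protein that restrains NF-kB signalling, changed by -0.28 and -0.57, TRAF1 by -0.32 and -0.53 and IL32 by -0.33 and -0.12. NF-kB subunits themselves were not called with both siRNAs, with RELA at -0.12 and 0.07 and NFKB1 at -0.12 and -0.05. PTX3, NFKBIZ, NFKBIE and IRAK2 were called in opposite directions.

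The partners of SARNP in mRNA export changed little. In a list of 43 genes of TREX, the exon junction complex and mRNA export, SARNP included, 38 genes other than SARNP were measured. Of these 38, 3 rose and 4 fell with both siRNAs (7.9% and 10.5%, beside 7.17% and 7.15% of all genes). Their changes lay between -0.32 and 0.43 with siRNA 3 and between -0.63 and 0.47 with siRNA 9. The 6 measured subunits of THO, the core of TREX, had a summed signal of 4848 to 4969 in the controls, 4600 to 4895 with siRNA 3 and 5040 to 5168 with siRNA 9.

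THOC6, a THO subunit, read 204 and 196 in the control libraries, 270.3 and 269 with siRNA 3 and 291 and 256 with siRNA 9, above the controls in every knockdown library. The log2 change of THOC6 was 0.43 (SE 0.10, adjusted p = 4.5e-04) with siRNA 3 and 0.45 (SE 0.10, adjusted p = 1.6e-04) with siRNA 9. Export adaptor ALYREF was called with neither siRNA (-0.10 and -0.09), and the receptor NXF1 only with siRNA 3 (-0.15 and 0.07). ZC3H11A, a zinc finger protein that associates with TREX, fell by 0.32 and 0.22. NCBP2, the small cap-binding subunit, changed by -0.18 and -0.63. Of the exon junction set, MAGOHB (0.24 and 0.35) and SAP18 (0.20 and 0.19) rose. MAGOHB is near-identical to MAGOH, so reads may be split between them. The count of 4 that fell was 2 under quantile normalization, with DESeq2, by total reads or without either control library, and 1 without siRNA 3 replicate 2.

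For factors of splicing and of the nuclear speckle, the shares called with both siRNAs were mostly near those of all genes (7.17% higher and 7.15% lower). Of 46 measured speckle and SR proteins, 2 rose (4.3%, SRRM2 and TRA2A) and 4 fell (8.7%, SRSF2, CLK3, SREK1 and U2SURP). SRRM2, the large scaffold of speckles, changed by 0.25 and 0.13, and CLK3, a kinase of SR proteins, by -0.28 and -0.31. Of 30 tri-snRNP and Sm proteins, 3 rose (10%) and 2 fell (6.7%), among them the Sm-like protein LSM4 at -0.61 and -0.18. Of 26 hnRNPs, abundant proteins that coat nascent RNA, 0 rose and 5 fell (19.2%), with the largest mean change in HNRNPH3 (-0.30 and -0.39). That count of 5 ranged down to 1 under quantile normalization, where 1 member rose and HNRNPU with siRNA 9 turned to 0.04, and was 2 by total reads or without control replicate 1, 3 without control replicate 2 and 3 without siRNA 3 replicate 1. The speckle count of 4 was 2 without either control library or without siRNA 9 replicate 1.

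Of 30 nuclear pore proteins, 2 rose (6.7%) and 4 fell (13.3%), beside 7.17% and 7.15% of all genes. TPR, which forms the nuclear basket, read 3560.3 and 3594 in the control libraries, 2500.4 and 2238 with siRNA 3 and 2953 and 3027 with siRNA 9, lower in all 4 knockdown libraries. NUP153, another basket protein, changed by -0.21 and -0.41, and NUP50, its partner, by -0.19 and -1.11. The pore count of 4 was 2 without control replicate 2. Of 42 genes of nonsense-mediated decay, deadenylation and the exosome, 2 rose and 2 fell, the first pair being DCP2, given above, and the exonuclease XRN1 at 0.30 and 0.17.

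**Figure D3:**
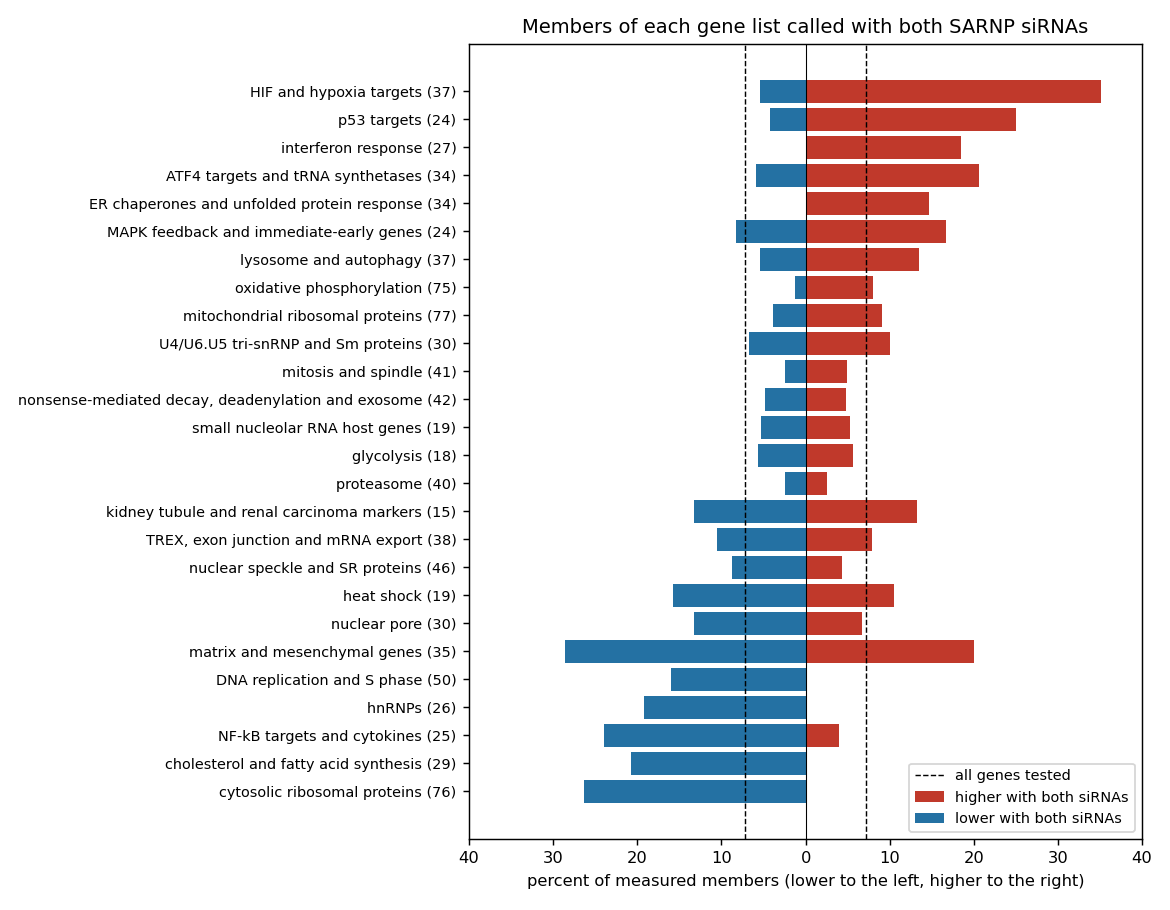
Bars give, for each gene list with at least 15 measured members (number in brackets), the percent of measured members called higher (right, red) and lower (left, blue) with both SARNP siRNAs, and dashed lines give the same for all genes tested. The hypoxia list extends farthest to the right, at 35.1%, and the matrix list farthest to the left, at 28.6%.

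Among the hypoxia and HIF targets, 13 of 37 measured genes rose with both siRNAs and 2 fell (35.1% and 5.4%, beside 7.17% and 7.15% of all genes). The list's median was 0.28 with siRNA 3 and 0.00 with siRNA 9, and 10 members were called in opposite directions. EPAS1, the HIF-2 alpha subunit, read 1739.8 and 1716 in the control libraries, 2319.9 and 2293 with siRNA 3 and 3727 and 3402 with siRNA 9. Every knockdown library was above both controls, and the siRNA 9 libraries were highest. EPAS1 had a log2 change of 0.42 (SE 0.05, adjusted p = 4.4e-09) with siRNA 3 and 1.04 (SE 0.05, adjusted p = 1.6e-20) with siRNA 9.

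The HIF targets that rose act in several parts of the hypoxia response. CA12, a cell surface carbonic anhydrase, read 4789 and 4971 in the control libraries, 7951 and 7743 with siRNA 3 and 8131 and 7731 with siRNA 9, at nearly equal changes of 0.69 and 0.70. CCND1, cyclin D1, rose by 0.31 and 0.65. TGFA, an EGF receptor ligand, rose by 0.98 and 0.70, and PLIN2, a coat protein of lipid droplets, by 0.47 and 0.86. SLC2A3, the glucose transporter GLUT3, rose by 0.54 and 1.78, and PDK1, which limits entry of pyruvate into mitochondria, by 0.26 and 0.56.

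ANGPTL4, a secreted inhibitor of lipoprotein lipase, differed most between the siRNAs, at 35.0 and 56.6 in the control libraries, 100.2 and 78.8 with siRNA 3 and 1804 and 1882 with siRNA 9. Its log2 change was 0.98 (SE 0.19, adjusted p = 8.5e-05) with siRNA 3 and 5.34 (SE 0.19, adjusted p = 1.3e-23) with siRNA 9. VEGFA, the vascular growth factor, was not called with both siRNAs (0.08 and -0.33). BNIP3L, a mitophagy receptor, fell by 0.51 and 0.82, while its relative BNIP3 rose by 0.31 and 0.27. Of 18 glycolysis enzymes, 1 rose (HK2, hexokinase 2, 0.16 and 1.20), 1 fell (PGK1, -0.20 and -0.15) and 7 were called in opposite directions.

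**Figure D4:**
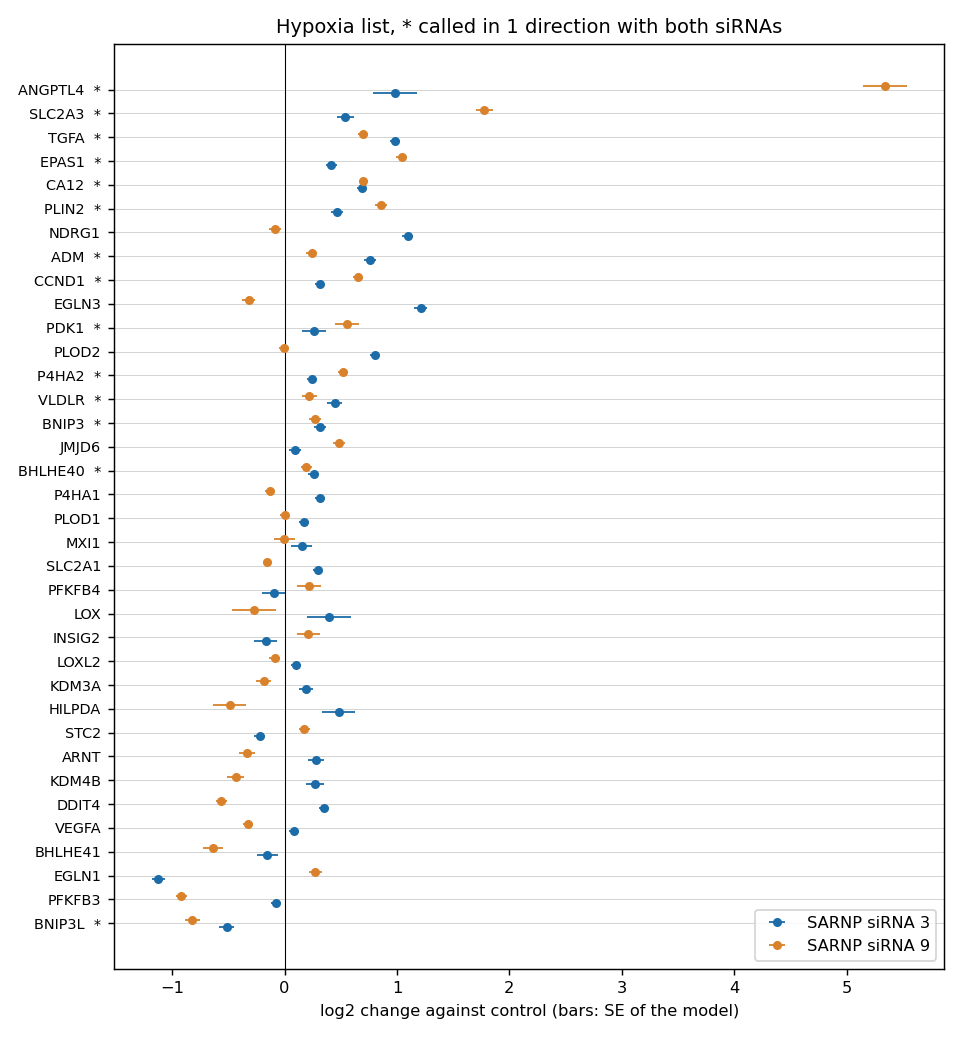
Points give the log2 change of each of 36 measured hypoxia genes against control with SARNP siRNA 3 (blue) and siRNA 9 (orange), bars the SE of the model, and an asterisk marks a call in 1 direction with both. ANGPTL4 with siRNA 9 lies farthest right at 5.34, and EGLN1 with siRNA 3 farthest left at -1.12.

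Of 24 measured p53 targets, 6 rose with both siRNAs (25%) and 1 fell (4.2%), beside 7.17% and 7.15% of all genes. GDF15, a secreted stress cytokine, read 11.7 and 12.82 in the control libraries, 55.3 and 54.6 with siRNA 3 and 68.9 and 64.5 with siRNA 9. All 4 knockdown libraries were far above both controls, with a log2 change of 2.08 (SE 0.24, adjusted p = 6.2e-09) with siRNA 3 and 2.35 (SE 0.24, adjusted p = 1.5e-10) with siRNA 9. CDKN1A, the cell cycle inhibitor p21, read 599 and 597 in the control libraries, 1356 and 1445 with siRNA 3 and 979.9 and 850.1 with siRNA 9, higher with siRNA 3. SESN1 and SESN2, stress proteins that restrain mTORC1, rose by 0.52 and 0.88 and by 0.78 and 0.24. POLH, a DNA polymerase that copies damaged templates, rose by 0.39 and 0.27 and PHLDA3 by 0.47 and 0.27, and PLK2, a polo-like kinase, changed by -0.45 and -0.71. The list's median was 0.27 and 0.15, and 3 members were called in opposite directions. With siRNA 3 alone 12 were higher and 1 lower, and with siRNA 9 alone 12 were higher and 8 lower.

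Of 27 interferon response genes, 5 rose (18.5%) and 0 fell with both siRNAs, beside 7.17% and 7.15% of all genes. Another 7 were called in opposite directions, and the median was 0.25 with siRNA 3 and -0.10 with siRNA 9. IFI44L, an interferon-induced protein, read 4.24 and 5.34 in the control libraries, 20.9 and 15.76 with siRNA 3 and 47.3 and 61.5 with siRNA 9. Its signal was low in the controls. USP18, which removes the ubiquitin-like ISG15 from proteins, rose by 0.82 and 0.64, UBE2L6 by 0.49 and 0.59, the factor IRF1 by 0.58 and 0.29 and IFIT5 by 0.35 and 0.38. Of 24 MAPK feedback and immediate-early genes, 4 rose (16.7%, ETV1, ETV5, DUSP6 and PHLDA1) and 2 fell (8.3%, JUNB and ATF3). In this list 6 members were called in opposite directions, and the median was -0.17 with siRNA 3 and 0.39 with siRNA 9. With siRNA 3 alone 5 were higher and 10 lower, and with siRNA 9 alone 16 were higher and 3 lower. DUSP6, a phosphatase of ERK, rose by 0.71 and 1.02, and ETV5, the relative of ETV1, by 0.51 and 0.34.

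Genes of amino acid supply and of the endoplasmic reticulum had more shared rises than shared falls, but the siRNAs differed in the lists as a whole. Of 34 ATF4 targets and tRNA synthetases, 7 rose (20.6%) and 2 fell (5.9%, NARS and WARS), beside 7.17% and 7.15% of all genes. SLC7A5 and SLC3A2, the 2 chains of a transporter of large amino acids, rose by 0.42 and 0.55 and by 0.44 and 0.57. Of 34 chaperones and genes of the unfolded protein response, 5 rose (14.7%) and 0 fell, with DNAJB9 at 0.42 and 1.10 and EDEM1, of the disposal of misfolded proteins, at 0.40 and 0.97. With siRNA 3 alone 19 members of the second list were higher and 1 lower, and with siRNA 9 alone 7 were higher and 14 lower, while 10 were called in opposite directions. Scaled to total reads, the counts of 7 and 5 that rose were 11 and 8. Of 37 lysosome and autophagy genes, 5 rose (13.5%), among them ATP6V1A of the proton pump (0.29 and 1.09), and 2 fell (5.4%), while 11 were called in opposite directions. With siRNA 3 alone 21 of the 37 were higher and 3 lower, and with siRNA 9 alone 9 were higher and 18 lower. Of 19 heat shock genes, 2 rose and 3 fell, and 5 fell without siRNA 9 replicate 2 or with only the compared groups in the fit.

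In cholesterol and fatty acid synthesis 0 of 29 measured genes rose and 6 fell with both siRNAs (20.7%), beside 7.17% and 7.15% of all genes. Another 10 were called in opposite directions. LSS, lanosterol synthase, read 614 and 535 in the control libraries, 381 and 406 with siRNA 3 and 371 and 335 with siRNA 9. All 4 knockdown libraries were below the controls, at a log2 change of -0.54 (SE 0.08, adjusted p = 4.6e-07) with siRNA 3 and -0.70 (SE 0.08, adjusted p = 9.7e-10) with siRNA 9. SREBF2, the transcription factor that drives the pathway, changed by -0.48 and -0.38, and INSIG1, which holds it back in the endoplasmic reticulum, by -0.43 and -0.35. SCD, which desaturates fatty acids, read 2294 and 2421 in the control libraries, 1782 and 2162 with siRNA 3 and 495 and 513 with siRNA 9, a much larger fall with siRNA 9. FDPS and EBP also fell. The median was -0.29 with siRNA 3 and 0.04 with siRNA 9.

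For DNA replication, 0 of 50 genes rose and 8 fell with both siRNAs (16%), beside 7.17% and 7.15% of all genes. Under quantile normalization or by total reads, 2 rose. The median was -0.02 with siRNA 3 and -0.26 with siRNA 9. POLD3, a subunit of DNA polymerase delta, read 871 and 901 in the control libraries, 561 and 639 with siRNA 3 and 598 and 628 with siRNA 9, at -0.56 (SE 0.07, adjusted p = 6.9e-09) with siRNA 3 and -0.53 (SE 0.07, adjusted p = 1.1e-08) with siRNA 9. CCNE2, cyclin E2, changed by -0.34 and -0.59, RFC1, of the clamp loader, by -0.26 and -0.68, and RRM1, of ribonucleotide reductase, by -0.25 and -0.34. Of 41 mitosis genes, 2 rose (4.9%) and 1 fell (2.4%), and 12 were called in opposite directions. AURKA, the kinase of the spindle poles, fell mostly with siRNA 3 (-0.84 and -0.19).

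Cytosolic ribosomal proteins were lower more often than higher. Of 76 measured, 0 rose and 20 fell with both siRNAs (26.3%), beside 7.17% and 7.15% of all genes. All 4 knockdown libraries were below both controls for 51 (0 above), beside 15.4% of all genes. Their median was -0.10 with siRNA 3, where 1 was called higher and 20 lower, and -0.21 with siRNA 9, where 0 were higher and 63 lower. Single members ranged from -0.45 to 0.19 with siRNA 3 and from -1.18 to 0.03 with siRNA 9. RPS7, of the small subunit, read 3616 and 3774 in the control libraries, 2988 and 3102 with siRNA 3 and 2924 and 3132 with siRNA 9, a change of -0.28 and -0.29. The count of 20 depended on the libraries and scaling: it was 3 without siRNA 3 replicate 1, 4 and 8 without control replicates 1 and 2, 9 under quantile normalization, 10 by total reads and 11 with DESeq2. Many of these genes have processed pseudogenes, and how their shared reads were counted is not stated. Of 77 mitochondrial ribosomal proteins, 7 rose (9.1%) and 3 fell (3.9%), and of 75 genes of oxidative phosphorylation, 6 rose (8%) and 1 fell (1.3%). The shares that rose were near the 7.17% of all genes. DESeq2 called 3 higher in either list, as did the fit without siRNA 3 replicate 1. Without control replicate 2 the first count was 4, and without control replicate 1 the second was 2. Of 40 proteasome genes, 1 rose and 1 fell (2.5% each).

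Genes of the matrix and the mesenchymal state went both ways, with 7 of 35 higher and 10 lower (20% and 28.6%, beside 7.17% and 7.15% of all genes). Several collagens fell, with COL1A1 at -0.92 and -1.32, COL4A1 at -0.22 and -0.37, COL4A2 at -0.24 and -0.46 and COL6A1 at -0.28 and -0.40. COL5A2 rose by 1.14 and 0.52, but DESeq2 did not call its rise with siRNA 9 (adjusted p = 0.14). VIM, the intermediate filament vimentin, changed by -0.24 and -0.66 and CDH2, N-cadherin, by -0.34 and -0.43. SNAI1, the transcription factor Snail, rose by 0.54 and 1.20. CYR61, a matrix protein also called CCN1, changed by -1.06 and -0.23. Of 15 kidney and renal carcinoma markers, 2 rose (CA12 and EPAS1), 2 fell (VIM and MME) and 8 were called in opposite directions, with the lineage factor PAX8 at -0.32 and 0.38 and PAX2 at 0.92 and -0.27.

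The SARNP knockdown was next set against the DDX39A knockdown, a contrast of the mean of both siRNAs of each that uses no control library. DDX39A is a helicase partner of SARNP in mRNA export. The contrast called 3046 genes higher (26.1%) and 3214 lower (27.5%) with SARNP knockdown, together 53.6% of genes tested. It shares the 4 SARNP libraries with the calls against control, so overlap of its calls with those is favoured. Genes higher with both SARNP siRNAs and also higher than with DDX39A knockdown numbered 499 of the 837 (4.28% of all genes tested), and those lower in both respects numbered 616 of the 835 (5.28% of all genes tested). Leaving out SARNP, pseudogenes, clone-based names and genes with a mean below 50, 241 and 346 of these had all 4 SARNP libraries beyond all 4 DDX39A and both control libraries.

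Within those 241 and 346 genes, the ones farthest from DDX39A knockdown were ETV1, CPEB4, KLHL4 and HMGA2 above it and CLEC4E, STMN3, THRB and CXCL8 below it. Larger differences outside these limits included ANGPTL4 at 2.95 (SE 0.14, adjusted p = 3.3e-20), whose libraries overlapped, and CXCL1, given below, whose mean was 49.3. HMGA2, an architectural chromatin protein, read 484 and 517 in the control libraries, 935 and 738 with siRNA 3 and 3900.2 and 4067 with siRNA 9. In the DDX39A knockdown it read 579 and 575 with DDX39A siRNA 1 and 609 and 641 with DDX39A siRNA 4. It was highest with siRNA 9 by a wide margin, and the difference between SARNP and DDX39A knockdown was 1.597 (SE 0.05, adjusted p = 1.8e-25).

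CPEB4, which binds cytoplasmic polyadenylation elements of mRNA, read 152 and 177 in the control libraries, 228 and 209 with siRNA 3 and 296 and 344 with siRNA 9. It was lower with DDX39A siRNA 4 than with siRNA 1, at 135 and 142 with DDX39A siRNA 1 and 52.6 and 51.3 with DDX39A siRNA 4. The difference was 1.63 (SE 0.09, adjusted p = 2.4e-18), and that of KLHL4, a kelch-like protein, was 1.61 (SE 0.11, adjusted p = 3.2e-15). ETV1 stayed near the controls in the DDX39A knockdown, at 29.3 and 26.4 with DDX39A siRNA 1 and 25.9 and 22.1 with DDX39A siRNA 4, and the difference was 1.72 (SE 0.16, adjusted p = 7.4e-12).

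On the lower side, THRB, the thyroid hormone receptor beta, read 289 and 330.0 in the control libraries, 193 and 190.2 with siRNA 3 and 76.3 and 58.5 with siRNA 9. With DDX39A knockdown it read 453 and 508 with DDX39A siRNA 1 and 376 and 324 with DDX39A siRNA 4, above every SARNP library, a difference of -1.84 (SE 0.08, adjusted p = 3.6e-21). CLEC4E, the lectin receptor Mincle, read 79.6 and 90.8 in the control libraries, 53.2 and 58.9 with siRNA 3 and 33.8 and 27.8 with siRNA 9. In DDX39A knockdown it was above the controls, at 154 and 151 with DDX39A siRNA 1 and 294 and 249 with DDX39A siRNA 4, a difference of -2.27 (SE 0.11, adjusted p = 1.4e-19). STMN3, a stathmin of microtubules, had its difference of -1.86 (SE 0.15, adjusted p = 5.0e-13) mostly through DDX39A siRNA 4. It read 31.8 and 28.6 with DDX39A siRNA 1 and 244 and 227 with DDX39A siRNA 4. Its fall against control with SARNP siRNA 9 was not called with edgeR (-0.54, adjusted p = 0.057) or DESeq2 (-0.54, adjusted p = 0.16). It was also not called under quantile normalization, by total reads or with only the compared groups in the fit. DESeq2 did not call its fall with siRNA 3 either (-0.77, adjusted p = 0.08).

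CXCL8 in the DDX39A knockdown read 374 and 468 with DDX39A siRNA 1 and 179 and 138 with DDX39A siRNA 4, which lies on both sides of the controls and above all 4 SARNP libraries. The difference was -1.82 (SE 0.10, adjusted p = 1.9e-17). Of the 25 measured NF-kB targets and cytokines, 22 were lower with SARNP than with DDX39A knockdown and 1, LIF, was higher, beside 27.5% and 26.1% of all genes. Against control, the median of these 25 was 0.32 for the mean of the DDX39A siRNAs, beside the -0.24 and -0.12 of the SARNP siRNAs, so both knockdowns enter the contrast. Among them were CXCL1 at -2.16 (SE 0.16, adjusted p = 3.3e-14), IL6 at -1.42 (SE 0.12, adjusted p = 1.6e-12) and TNFAIP3 at -1.09 (SE 0.06, adjusted p = 1.2e-17). CCL2, a monocyte chemokine not called with both SARNP siRNAs, differed by -1.72 (SE 0.12, adjusted p = 7.3e-15).

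Some of the genes of largest rise were not called apart from DDX39A knockdown. Of the 12, 8 were called higher than with DDX39A knockdown, and C10orf128, TECPR2, ITGB6 and NPTXR were not, at differences of 0.08 (SE 0.07, adjusted p = 0.338), -0.02 (SE 0.08, adjusted p = 0.849), 0.19 (SE 0.11, adjusted p = 0.143) and 0.01 (SE 0.09, adjusted p = 0.909). Against control, 8 of the 12 were also called higher with both DDX39A siRNAs, with C10orf128, TECPR2 and NPTXR included. The rest of these were SEC24A (0.60 and 0.83 with DDX39A siRNA 1 and 4), RIN1 (0.56 and 0.83), MPZL3 (0.81 and 0.82), HGD (0.36 and 0.39) and FAH (0.20 and 0.92). TECPR2 changed against control by 1.17 and 1.35 with the SARNP siRNAs, and by 1.31 and 1.25 with DDX39A siRNA 1 and 4. DCP2 differed by 1.26 (SE 0.04, adjusted p = 6.4e-25). All 12 genes of largest fall were called lower than with DDX39A knockdown. They ranged from CXCL8 at the value above and TGFB1I1 at -1.38 (SE 0.08, adjusted p = 1.6e-17) to BTG3 at -0.34 (SE 0.05, adjusted p = 1.4e-06). Against control, 2 of these 12 were also called lower with both DDX39A siRNAs, RTL3 (-2.00 and -1.61) and DPYSL2 (-0.52 and -0.57). RTL3 read 39.5 to 68.7 in the DDX39A libraries, below both SARNP siRNA 3 libraries and above both siRNA 9 libraries. BTG3 read 272 and 276 with DDX39A siRNA 4, below all 4 SARNP libraries. The 12 of each direction were chosen by the same 4 SARNP libraries that enter this contrast, so such calls follow in part from the choice. Of all genes tested, 26.1% were called higher and 27.5% lower.

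**Figure D5:**
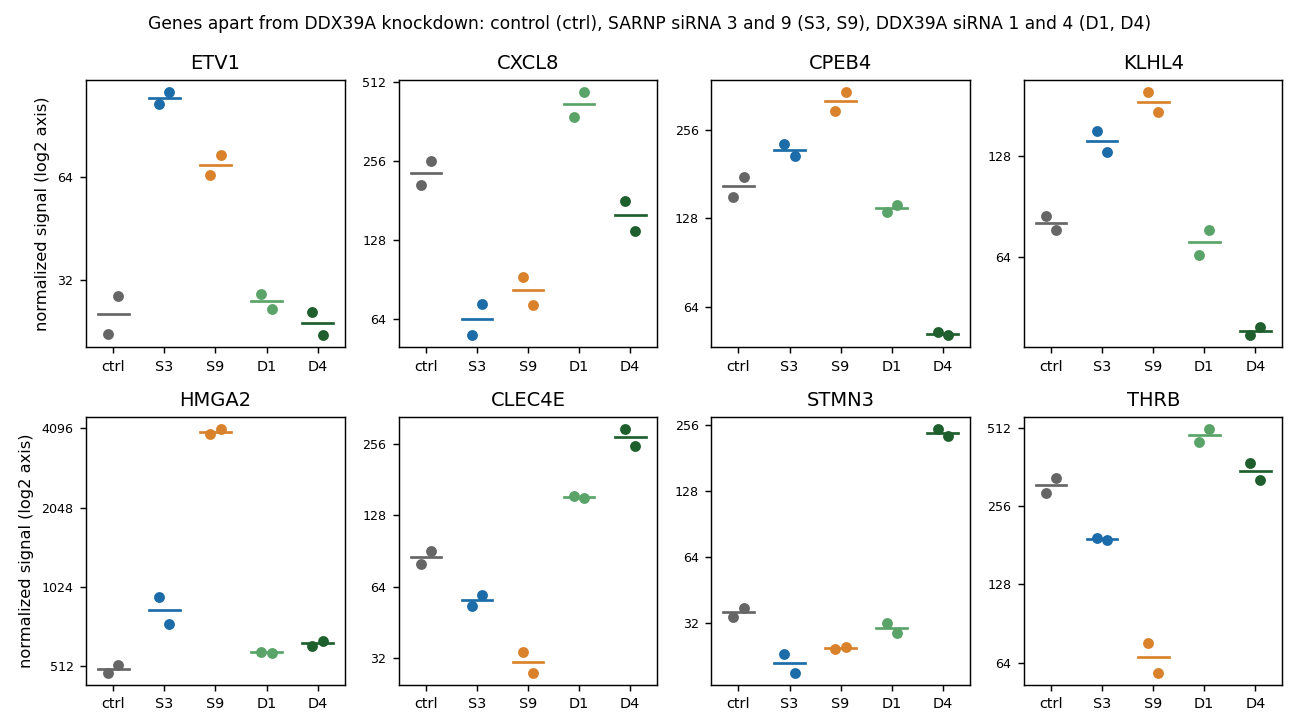
Points give the normalized signal (log2 axis) of each library and lines the group means, for the 8 genes farthest from DDX39A knockdown within those limits, in control (ctrl), SARNP siRNA 3 and 9 (S3, S9) and DDX39A siRNA 1 and 4 (D1, D4). The 4 SARNP libraries lie beyond all others in every panel, which the rule required, while the DDX39A siRNAs differ widely for STMN3 and CPEB4.

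Transcript length, exon number and GC content of the genes that moved with both siRNAs were close to those of all genes. Transcripts had a median length of 3633 bases for the genes that rose, 3960 for those that fell and 3474 for all genes tested, with 10, 10 and 9 exons. Their GC content was 46.7%, 47.1% and 47.9%. Of the genes that rose, 1.56% had a single exon, beside 2.93% of all genes. The genes apart from DDX39A knockdown lay farther from that value in GC content, with a median of 43.1% for the 241 above it and 49.1% for the 346 below it. These are descriptions with no test, from the longest transcript of each symbol in GENCODE 29, and 98.8% of all genes had a match. The median gene span was larger, at 42474 bases for the genes that rose and 40124 for those that fell, beside 33947 for all genes. Their signal was also higher, with a median of 623.5 and 939.4 beside 457.6 for all genes. These differences were not tested either.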

How the data were processed

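Per the labels, poly(A) RNA of 786-O cells was made into directional libraries and read as paired ends of 42 bases. The submitters' processing notes name hg19, STAR, Picard, HTSeq and DESeq2, with no versions or roles. The annotation and the strand counted are not given in the sources used here. The deposited unit is normalized signal, made by the authors as gene counts divided by 1 size factor per library. In each column the values were whole multiples of a single step (within 0.0001 of a read), from which reads were recovered in all 10 libraries. In 5 of the 10 libraries a check that takes the lowest value as 1 read did not recover them: the lowest value was above 1 read in 4, and few values were low in the other. The count tests, used as alternatives only, rest there on the step found by trying lowest values of more reads. Entries without a gene (7.38% to 8.1% of reads) were left out. Tables of other targets were not used.

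limma 3.58.1 in R 4.3.3 (lmFit, contrasts.fit, eBayes with trend) was fitted to log2(signal + 1) of all 10 libraries with 5 group means, for 11672 genes with a mean of at least 10. Tests were two-sided with Benjamini-Hochberg adjustment over all genes. Residual degrees of freedom were 5 and prior 31.9. The script was tested on simulated data. Replicates of a group differed by more than counting error.

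The members and the gene lists were chosen with earlier results of these data known. Named genes were SARNP, export-list members called with both siRNAs, the 12 of largest smaller change in each direction (mean of at least 50, no overlap with controls), up to 4 per list and up to 4 per direction apart from DDX39A knockdown. The text names a selection, and names other list members after their values were seen. A few genes that meet it are withheld and not reported here. Lists got no test. The list of small nucleolar RNA host genes had 1 of 19 higher and 1 lower. The settings varied were the pseudocount (5), the filter (none, or a table mean of 50), quantile normalization, a replicate block, edgeR 4.0.16 and DESeq2 1.42.0 on reads, a fit of the compared groups only, each library left out and, added after seeing the data, scaling to total gene reads. Promoters came from RefSeq (GRCh38.p14). The sequences of the siRNAs were not used here.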

Additional observations from a re-analysis of the deposited data

Results flagged for a closer look

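The genes flagged for a difference between SARNP and DDX39A knockdown number 8. They had the largest difference among genes called with both SARNP siRNAs and called the same way by the test of that difference. A mean of at least 50 and no overlap of the SARNP libraries with the DDX39A or control libraries were also required. The call at each of the 8 was thus fixed by the rule. On the log2 scale ETV1 was higher by 1.72, CPEB4 by 1.63, KLHL4 by 1.61 and HMGA2 by 1.597. CLEC4E differed by -2.27, STMN3 by -1.86, THRB by -1.84 and CXCL8 by -1.82. For STMN3 the DDX39A siRNAs themselves lay far apart, with changes against control of -0.23 for siRNA 1 and 2.69 for siRNA 4.

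The 2 SARNP siRNAs called 1517 genes in opposite directions, beside 837 higher and 835 lower with both.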

How the results depend on the processing

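The number of genes higher with both siRNAs moved from 837 to 498 with DESeq2, which calls fewer genes with either siRNA (3375 and 5514), and the cause was not tested. Leaving out 1 library at a time gave 642 to 718 genes higher and 598 to 750 lower with both, 3684 to 3860 called with siRNA 3, 5707 to 5866 with siRNA 9, 6516 to 6653 between the siRNAs and 5601 to 5971 between SARNP and DDX39A knockdown. There the group left with 1 library is assumed to vary like the others. Replicate numbers did not pair the samples, with correlations of deviations from -0.06 to 0.04 over 10 pairs of groups. With the replicate block, 823 genes were higher and 834 lower with both siRNAs, and 4783 and 6785 were called with siRNA 3 and 9. Of 3320 alternative values of the 128 named genes, 3203 kept their direction and call, 115 lost the call and 2 reversed under quantile normalization, XPO1 and HNRNPU with siRNA 9, to 0.014 and 0.037. With 2 libraries a group, small changes are the least certain. Some of the list counts that moved when 1 library was left out are given beside the lists. Others that moved are not given, among them counts of the NF-kB, cholesterol, ATF4, matrix and DNA replication lists. List counts of 2 or fewer genes moved by at most 2 genes under the settings tried.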
